A study of Mus musculus with 6 samples.

Results

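*Prom1*, *Fabp7*, *Msi1*, *Msi2*, *Hopx*, *Tnc*, *Cd44*, *Bcan*, *Vcam1* and *Ednrb* were followed as a set of radial glia and stem cell markers in cultured mouse neural stem cells (NSCs). The members were chosen by gene name, with earlier results of these data known, and make up 10 of the 53378 genes with a value in every library. All 10 had a mean normalized count of at least 10 over the 6 libraries, and therefore belonged to the 14840 genes that were tested. A normalized count is the number of reads on a gene divided by 1 size factor per library.

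The NSCs came from the embryonic cortex of *Tbl1xr1* flox/flox mice at E14.5 and were kept as neurospheres in medium with bFGF and EGF. Cells of this 1 genotype were infected with a lentivirus carrying either Cre-GFP, to make knock-out (KO) cells, or GFP only, as control, and GFP+ cells were sorted. Control libraries 1, 1_1 and 2 and libraries 2, 2_2 and 3 labelled Cre were analyzed, 3 per group. No label ties a library to an embryo or a culture, so that p-values measure only the spread between these libraries, which may in part be technical. *Tbl1xr1*, the targeted gene, which codes for a subunit of the NCOR corepressor complex, had normalized counts of 2522, 2189.8 and 2721 in control against 3774, 3463 and 2905 in the libraries labelled Cre. Its messenger was thus not lower in any library labelled Cre (log2 fold change 0.45, SE 0.14, limma adjusted p = 0.06), and it passed as higher without library 3 labelled Cre (limma adjusted p = 0.0234). The loxP sites flank a single exon and the value counts reads over the whole gene, so that it does not measure the deletion. For cells made in this way the study checked the genotype by PCR, the messenger by RT-qPCR and the protein by Western blot. It reported that *Tbl1xr1* messenger and protein were absent. The groups are called control and libraries labelled Cre, and values are listed in the library order given above.

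Radial glia are the neural stem cells of the embryonic cortex. They span its wall from the ventricle to the pial surface, generate neurons first and glia later, and share many transcripts with the astrocytes that arise from them. In culture with bFGF and EGF they divide as neurospheres, where surface proteins, extracellular matrix proteins and RNA-binding proteins of radial glia serve as markers. The set holds surface receptors and adhesion proteins (*Ednrb*, *Vcam1*, *Cd44*), a protein of membrane protrusions (*Prom1*) and matrix proteins (*Tnc*, *Bcan*). It also holds the fatty acid binding protein *Fabp7*, the RNA-binding Musashi proteins *Msi1* and *Msi2*, and the small homeodomain protein *Hopx*.

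Other NSC markers were checked first. *Nes*, *Vim*, *Sox2* and *Slc1a3* were abundant in both groups. *Pax6*, a further NSC marker, was much lower, at 300 to 349 normalized counts per control library and 369 to 388 per library labelled Cre. Its mean normalized count over the 6 libraries was 347, against a median of 182 over all tested genes. Per kb of exon its mean was above that of 20.1% of all tested genes. That value depends on the length used, 19833 bases, which takes all annotated exons of *Pax6* together. The neuron markers *Stmn2* and *Neurod6* and the vessel markers *Cdh5*, *Cldn5* and *Pdgfrb* had no read in any library. Other markers of the same lists were present. *Map2*, which codes for a microtubule-associated protein of neurons, had 9124 to 11155 normalized counts per library, and *Kdr*, which codes for a receptor of VEGF, had 6.93 to 33.95. *Nes*, an intermediate filament protein of neural progenitors, fell from 6229 ± 912 in control to 3435 ± 357 (SD, n = 3) in the libraries labelled Cre (log2 fold change -0.85, limma adjusted p = 0.00384). *Vim*, a further filament protein, had a log2 fold change of -0.34 (limma adjusted p = 0.105) and *Sox2*, a transcription factor of stem cells, one of 0.38 (limma adjusted p = 0.259), which was 0.59 and passed without library 2 labelled Cre (limma adjusted p = 0.0268). Reads on genes ran from 7510615 to 11161497 per control library and from 11893230 to 14828100 in the libraries labelled Cre, and the first principal component, with 48.7% of the variance, separated the groups.

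Of the 10 members, *Vcam1* and *Ednrb* rose in the libraries labelled Cre, none fell, and 8 did not pass the test (limma, Benjamini-Hochberg adjusted p under 0.05 over all tested genes). Over the 14840 genes tested, 9.96% were called, 4.74% as higher and 5.22% as lower. The groups did not overlap for 4 members, *Vcam1*, *Ednrb* and *Msi2* with higher values in the libraries labelled Cre and *Tnc* with lower ones, against 30.3% of all tested genes. Positive log2 fold changes were found for 8 members and negative ones for *Tnc* and *Cd44*, with a median of 0.29 over the members and of -0.001 over all tested genes. An unadjusted p under 0.05 was reached by 4 members, against 25.5% of all tested genes. The members were measured at a higher level than most genes, with a median mean normalized count of 1177 against 182 over all tested genes.

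**Figure D1:**
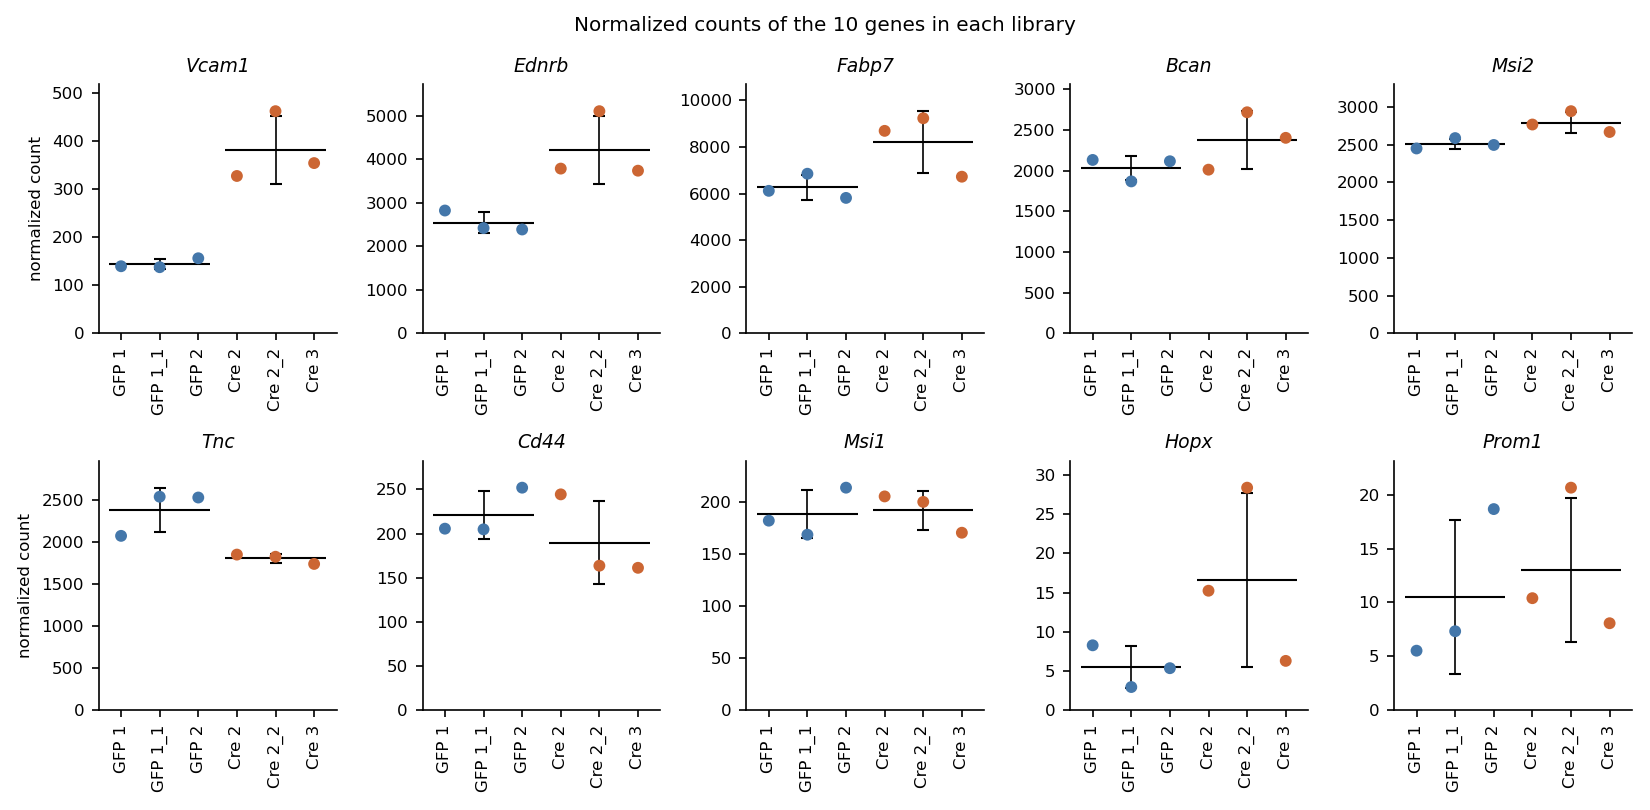
Normalized counts (vertical axes, from 0, on a scale of their own per gene) of the 10 genes in each of the 6 libraries (horizontal axes). Blue points are control libraries (GFP), orange points are libraries labelled Cre, horizontal lines are means and bars are the SD of 3 libraries. *Vcam1*, *Ednrb* and *Msi2* lie higher and *Tnc* lower in every library labelled Cre than in any control library, and library 2_2 labelled Cre is the highest of the 6 for 7 of the 10 genes.

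*Ednrb* (ENSMUSG00000022122, chr14:103814615-103844508, GRCm38) codes for the endothelin receptor type B, a G protein-coupled receptor that is found on radial glia and later on astrocytes. Its normalized counts were 2821, 2418 and 2386 in control against 3783, 5102 and 3736 in the libraries labelled Cre. The lowest library labelled Cre lay well above the highest control library, and library 2_2 stood out as the highest. The mean rose from 2542 ± 242 to 4207 ± 775 (SD, n = 3), a fold change of 1.64 with a 95% interval of 1.32 to 2.04 (log2 fold change 0.72, SE 0.14, limma adjusted p = 0.0108). *Ednrb* remained past the threshold in 15 of 17 other settings. The call was lost without control library 1_1 (log2 fold change 0.68, limma adjusted p = 0.0565) and without control library 2 (0.67, limma adjusted p = 0.063), and library 2_2 labelled Cre set part of the size, since the log2 fold change was 0.57 without it.

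The stretch of 250 bases before the annotated start of *Ednrb* and that of *Tnc*, the member with the most negative difference, are shown because they are the windows in which sequence motifs were looked for at the members with the clearest separation for which RefSeq (GRCm38.p6) gave a promoter. They are read 5′ to 3′ on the minus strand, with matches to the motifs named after them, on either strand, in capitals. The *Ednrb* window is chr14:103843702-103843951 and the *Tnc* window chr4:64047016-64047265.
Ednrb: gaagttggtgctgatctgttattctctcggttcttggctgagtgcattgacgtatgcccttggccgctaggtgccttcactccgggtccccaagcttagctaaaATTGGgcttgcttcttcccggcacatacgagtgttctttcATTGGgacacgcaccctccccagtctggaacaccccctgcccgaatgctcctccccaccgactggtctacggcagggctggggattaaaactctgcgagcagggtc
Tnc: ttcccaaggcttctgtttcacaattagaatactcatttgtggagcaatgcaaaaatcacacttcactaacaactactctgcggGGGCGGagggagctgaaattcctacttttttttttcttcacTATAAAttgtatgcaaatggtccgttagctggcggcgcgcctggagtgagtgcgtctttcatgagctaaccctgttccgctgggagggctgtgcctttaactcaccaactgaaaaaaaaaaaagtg

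The *Ednrb* window held CCAAT, the CCAAT box, at 2 places, which read ATTGG on the printed strand and begin 146 and 106 bases before the start, and had a GC content of 56.8%. The *Tnc* window held TATAAA, the letters of the TATA box, 126 bases before the start and GGGCGG, those of the GC box, 167 bases before it. Its GC content was 44.8%. All of these are matches of letters only, and whether any of them acts in these cells was not tested. Of 32851 RefSeq promoter windows of this length, 33.8% held the CCAAT box, 12.4% the TATA box and 32.7% the GC box, and the median GC content was 52.4%. The E-box (CACGTG), the AP-1 motif (TGANTCA) and the motif of RBPJ, the DNA-binding factor of Notch signaling (GTGGGAA), were searched on both strands too and had no match in either printed window. RefSeq gives a further start of *Tnc*, whose window (chr4:64046937-64047186) overlaps the printed one and held the motif of RBPJ at 82 bases before that start. Their shares over all windows were 6.02%, 6.75% and 5.42%. An entry was found for 8 of the 10 members, with none for *Vcam1* and *Msi1*. The record of the *Ednrb* gene reaches further upstream than the start used here.

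*Vcam1* (ENSMUSG00000027962, chr3:116110020-116129688, GRCm38) codes for vascular cell adhesion molecule 1, an immunoglobulin superfamily protein that binds integrins and also marks quiescent stem cells of the adult ventricular zone. On the log2(normalized count + 1) scale it had the largest estimated difference of the 10 members, whereas *Hopx*, with few reads, had the larger ratio of means (3.02 against 2.64) and the larger estimate on the recovered reads (log2 fold change 1.51 against 1.40 with edgeR and 1.55 against 1.40 with DESeq2). Control libraries had normalized counts of 139, 138 and 156, and the libraries labelled Cre had 327, 461 and 354. Control values lay close together, all libraries labelled Cre lay far above them, and library 2_2 was again the highest. From a mean of 144 ± 10.2 the level rose to 381 ± 71.2 (SD, n = 3), which is a fold change of 2.60 with a 95% interval of 2.01 to 3.36 (log2 fold change 1.38, SE 0.17, limma adjusted p = 0.00073). The difference was larger in size than that of 97.5% of all tested genes. It passed the threshold in 17 of 17 other settings, the looser threshold that any called gene passes among them, with log2 fold changes from 1.23 to 1.48. *Vcam1* also marks endothelial cells, and whether such cells have a part in its values was not tested. Of 10 endothelial and mural markers, 3 had no read. The sum over the list was 34.7 to 43.1 in control against 16.1 to 29.1 in the libraries labelled Cre. *Kdr*, the 1 gene of the list that was tested, had means of 24.5 and 8.74 (limma adjusted p = 0.0677).

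The genes whose profile over the 6 libraries lay closest to that of *Vcam1* were *Gpx8*, which codes for a peroxidase of the endoplasmic reticulum, and *Skil*, which codes for the SMAD corepressor SnoN. Their distances, taken between log2 values centred per gene, were 0.21 and 0.24. *Gpx8* went from a mean of 134 to 349.8 and *Skil* from 167 to 440.2, with log2 fold changes of 1.37 and 1.36. Closest to *Ednrb* were *Zfp711*, a zinc finger gene with means of only 12.9 and 23.0 that was not called (limma adjusted p = 0.199), and *Ntrk2*, the receptor of BDNF, with means of 1930.0 and 3234 (log2 fold change 0.74, limma adjusted p = 0.00305). These neighbours were found by their likeness, so that their differences between the groups follow from those of the members.

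*Cd44* (ENSMUSG00000005087, chr2:102811141-102901669, GRCm38) codes for the receptor of hyaluronan, a glycan of the extracellular matrix, and is found on neural progenitors and astrocyte precursors. Normalized counts of 206, 205 and 252 in control stood beside 244, 164 and 161 in the libraries labelled Cre. Libraries 2_2 and 3 labelled Cre were below all controls, while library 2 labelled Cre lay among them, so that the groups overlapped. The log2 fold change was -0.24 with a 95% interval of -0.67 to 0.19 (limma adjusted p = 0.487).

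*Prom1* (ENSMUSG00000029086, chr5:43993621-44102047, GRCm38) codes for prominin 1 or CD133, a protein of membrane protrusions used to isolate stem cells. It was covered by few reads, with 6, 5 and 14 reads in control against 15, 24 and 9 reads in the libraries labelled Cre. These gave normalized counts of 5.51, 7.31 and 18.7 in control against 10.4, 20.7 and 8.06 in the libraries labelled Cre. The highest value of each group was about as high as the other, and the interval of the log2 fold change ran from -0.86 to 1.58 around 0.36 (limma adjusted p = 0.742). Without library 2_2 labelled Cre the log2 fold change was -0.007.

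*Tnc* (ENSMUSG00000028364, chr4:63959785-64047015, GRCm38) codes for tenascin-C, a matrix glycoprotein of the stem cell niche that binds integrins and lecticans. The control values were 2072, 2538 and 2529, and those of the libraries labelled Cre were 1849, 1823 and 1738. All libraries labelled Cre were below all controls and differed little from each other. Means of 2379.6 ± 266 in control against 1803 ± 58.2 in the libraries labelled Cre (SD, n = 3) gave a log2 fold change of -0.39 (SE 0.12, 95% interval -0.66 to -0.13), with an unadjusted p of 0.00717 and a limma adjusted p of 0.0615. *Tnc* thus missed the threshold, and passed it without library 2 labelled Cre (log2 fold change -0.41, limma adjusted p = 0.0406). A gene on the opposite strand, 8030451A03Rik, overlaps exons of *Tnc*. It had 183 reads over all libraries, and whether strand was used in counting is not given in the sources used here.

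*Bcan* (ENSMUSG00000004892, chr3:87987531-88002175, GRCm38) codes for brevican, a lectican of the brain matrix that is made by glia and their precursors. Its normalized counts were 2130.0, 1867 and 2114 in control against 2010.5, 2715 and 2401 in the libraries labelled Cre. Library 2 labelled Cre lay among the controls and the others above them. The log2 fold change of 0.21 had a 95% interval of -0.08 to 0.51 (limma adjusted p = 0.349).

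*Fabp7* (ENSMUSG00000019874, chr10:57784923-57788450, GRCm38) codes for brain lipid-binding protein, the classic cytoplasmic marker of radial glia. It had 6119, 6853 and 5816 normalized counts in control against 8694, 9235 and 6726 in the libraries labelled Cre. Libraries 2 and 2_2 labelled Cre were higher than any control, whereas library 3 was below control library 1_1. Means were 6263 ± 533 and 8218 ± 1320.2 (SD, n = 3), for a log2 fold change of 0.38 (SE 0.14, 95% interval 0.07 to 0.70) that missed the threshold with a limma adjusted p of 0.122. Without library 3 labelled Cre it was 0.52 and passed (limma adjusted p = 0.0268).

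*Msi2* (ENSMUSG00000069769, chr11:88339382-88718306, GRCm38) and *Msi1* (ENSMUSG00000054256, chr5:115359059-115455698, GRCm38) code for the Musashi proteins, paralogs that bind messengers of progenitors and control their translation. *Msi2* had normalized counts of 2450.2, 2588 and 2497 in control against 2767, 2944 and 2668 in the libraries labelled Cre. The groups did not overlap, but the gap between them was small and the log2 fold change of 0.15 had a 95% interval of -0.08 to 0.39 (limma adjusted p = 0.416). *Msi1* had 182, 168 and 213 in control against 205, 199.7 and 170.1 in the libraries labelled Cre. These values were mixed between the groups, and the log2 fold change of 0.03 had a 95% interval of -0.33 to 0.40 (limma adjusted p = 0.931).

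*Msi2* reads were 13.5, 15.4 and 11.7 times those of *Msi1* in control against 13.5, 14.7 and 15.7 times in the libraries labelled Cre. The log2 ratio of *Msi1* to *Msi2* had a mean of -3.74 ± 0.20 (SD, n = 3) for control and of -3.86 ± 0.11 for the libraries labelled Cre. The difference of -0.12 was within the spread between libraries (two-sided exact permutation test, p = 0.4, where 3 against 3 cannot go below 0.1). Both genes share similar coding sequence, and how reads that match both were counted is not given in the sources used here.

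*Hopx* (ENSMUSG00000059325, chr5:77086986-77115123, GRCm38) codes for a homeodomain-only protein known from outer radial glia and from astrocytes. It was covered by 9, 2 and 4 reads in control against 22, 33 and 7 reads in the libraries labelled Cre. Normalized counts were 8.26, 2.93 and 5.33 in control against 15.2, 28.4 and 6.27 in the libraries labelled Cre. Libraries 2 and 2_2 labelled Cre were above all controls and library 3 was not. The log2 fold change of 1.30 was near that of *Vcam1* in size but had an SE of 0.61 and a 95% interval of -0.03 to 2.64 (limma adjusted p = 0.208).

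**Figure D2:**
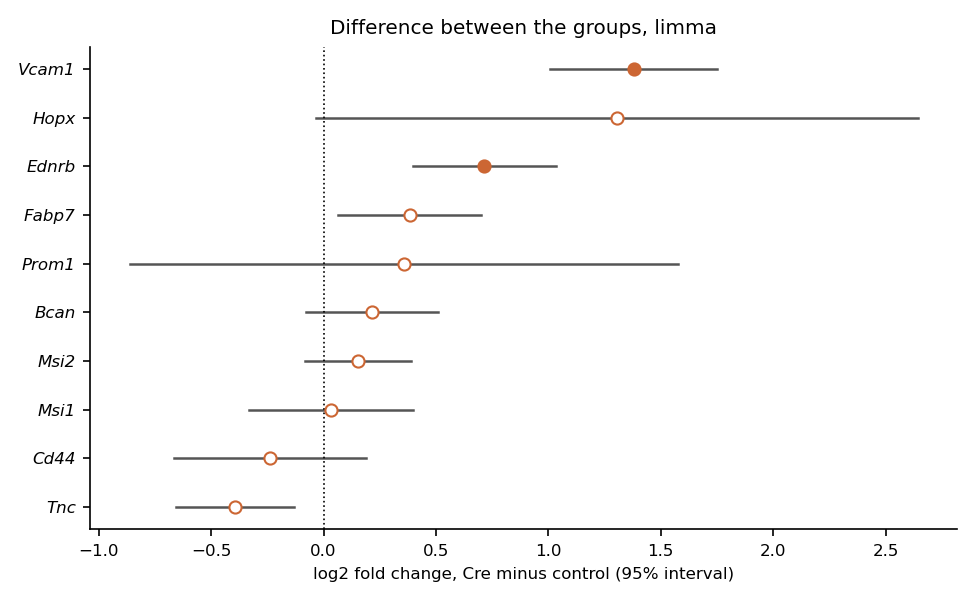
Log2 fold change (horizontal axis, libraries labelled Cre minus control) of the 10 genes, ordered by size, from limma on log2(normalized count + 1). Points are estimates, lines are 95% intervals, filled points passed an adjusted p under 0.05 and open points did not. The intervals of *Hopx* (-0.03 to 2.64) and *Prom1* (-0.86 to 1.58) are the widest, and those of *Vcam1* (1.01 to 1.75) and *Ednrb* (0.40 to 1.03) lie clear of 0.

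Levels between the members were compared as normalized counts per kb of exon. The length is that of all annotated exons of a gene together, not of the transcripts made in these cells. The order of genes with close values depends on it. *Fabp7* was the highest in both groups, at 5010.2 per kb in control compared with 6574 per kb in the libraries labelled Cre, and its mean was above that of 99.5% of all tested genes. *Ednrb* followed with 629.6 and 1042 per kb, then *Bcan* with 623 and 727 per kb, the pair differing in control by less than the spread between libraries, and *Tnc* and *Msi2* with 317 and 236 per kb in control. In the libraries labelled Cre the order of this pair turned, with 240.2 per kb for *Tnc* and 262 per kb for *Msi2*. *Msi1*, *Cd44* and *Vcam1* had nearly the same level in control, at 32.4, 32.2 and 29.4 per kb, while *Vcam1* stood at 77.4 per kb in the libraries labelled Cre. *Hopx* and *Prom1* were the lowest, at 2.62 and 2.32 per kb in control, with means above only 5.14% and 1.33% of all tested genes.

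Partners of the matrix members came next. Of 10 other lecticans, link proteins and tenascins, 4 were tested, 2 were higher and none lower, and the median log2 fold change was 0.39. *Vcan*, the lectican versican, rose from 619 ± 129 to 1391 ± 175 (SD, n = 3; log2 fold change 1.18, SE 0.16, limma adjusted p = 0.00129), with values of 548, 768 and 541 in control against 1230.0, 1365 and 1578 in the libraries labelled Cre. *Ncan*, the lectican neurocan, rose from 3801 ± 327 to 5376 ± 504 (log2 fold change 0.50, limma adjusted p = 0.0274), a call that was lost when any 1 control library or library 2_2 labelled Cre was left out (limma adjusted p from 0.0562 to 0.147). Thus *Bcan* had the same sign as the called lecticans without passing the test, and *Tnr*, the tenascin relative of *Tnc*, had a log2 fold change of -0.06 (limma adjusted p = 0.837).

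VCAM1 and tenascin-C are both bound by integrins, dimers of an alpha and a beta subunit. Of 8 subunit genes of these receptors, 4 were tested, none was higher and 2 were lower. *Itga4*, the alpha 4 subunit of the VCAM1 receptor, had normalized counts of 721, 718 and 580.1 in control against 348, 504 and 333 in the libraries labelled Cre. It fell from 673 ± 80.6 to 395 ± 95.03 (SD, n = 3; log2 fold change -0.79, SE 0.17, limma adjusted p = 0.0172). The call did not hold without control library 1 (limma adjusted p = 0.0939) or without 1_1 (0.0784). *Itga9*, the alpha 9 subunit that binds both ligands, had 19, 28 and 19 reads in control against 3, 13 and 1 in the libraries labelled Cre, with means of 27.9 and 4.72 normalized counts (log2 fold change -2.72, SE 0.68, limma adjusted p = 0.0289). Its log2 fold change was -1.84 with a pseudocount of 5, and the call was lost without any 1 control library or without library 3 labelled Cre (limma adjusted p from 0.0517 to 0.131). *Itgav*, the alpha V subunit, had means of 641 and 934 without overlap in the other direction (log2 fold change 0.52, limma adjusted p = 0.0688). *Itgb1*, the beta 1 subunit shared by many integrins, had means of 12110.5 and 11526.5 (log2 fold change -0.07, limma adjusted p = 0.782).

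Ligands of *Ednrb* were nearly absent. Of 6 genes for endothelin ligands, the other receptor and processing enzymes, 3 were tested and none was called. *Edn2* and *Edn3* had no read in any library, and *Edn1* had 2 reads in 1 library labelled Cre and none elsewhere. *Ednra*, the type A receptor, had normalized counts of 15.6, 8.78 and 13.3 in control against 26.3, 20.7 and 28.7 in the libraries labelled Cre, without overlap (log2 fold change 0.97, limma adjusted p = 0.132). *Ece1*, the enzyme that cleaves endothelin precursors, had a log2 fold change of 0.29 (limma adjusted p = 0.38).

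**Figure D3:**
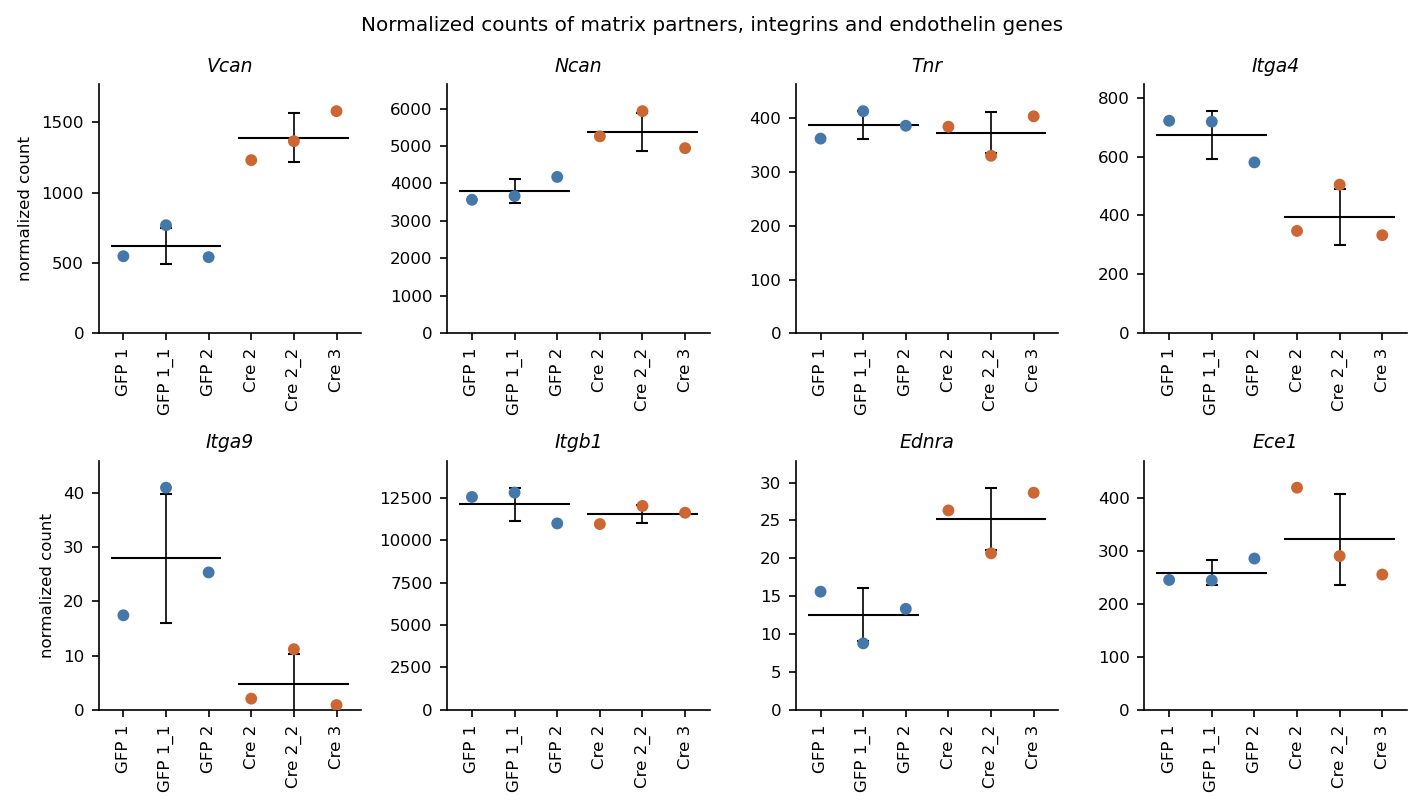
Normalized counts (vertical axes, from 0, on a scale of their own per gene) of matrix partners, integrin subunits and endothelin genes in each of the 6 libraries (horizontal axes). Blue points are control libraries (GFP), orange points are libraries labelled Cre, horizontal lines are means and bars are the SD of 3 libraries, drawn down to 0 at most. *Vcan* and *Ncan* are higher and *Itga4* and *Itga9* lower in the libraries labelled Cre without overlap, while *Tnr*, *Itgb1* and *Ece1* overlap between the groups.

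Relatives and partners of the other members were mostly not called. Among 11 genes for hyaluronan synthesis, hyaluronan breakdown and the cytoskeletal linkers of CD44, 9 were tested and none passed, and the most abundant, the linker *Msn*, had a log2 fold change of -0.10 (limma adjusted p = 0.723). Of 7 Musashi relatives and textbook targets, all were tested, all had negative log2 fold changes (median -0.30) and 1 was lower. This was *Cdkn1a*, a cell cycle inhibitor, with means of 3708 and 2706 (log2 fold change -0.45, limma adjusted p = 0.037). Its call was lost when any 1 library other than library 2 labelled Cre was left out (limma adjusted p from 0.0537 to 0.153). None of the 3 tested genes of 7 for other fatty acid and retinoid binding proteins was called. *Fabp5*, the fatty acid binding relative of *Fabp7*, had means of 855 and 496 with overlap (log2 fold change -0.87, limma adjusted p = 0.0572), and passed without library 2 labelled Cre (-1.24, limma adjusted p = 0.000189). Of 3 prominin relatives and protrusion partners, 2 were tested and 1 was called. *Ttyh1*, a membrane protein of protrusions as prominin is, rose from 1108 ± 88.0 to 2526 ± 744 (SD, n = 3; log2 fold change 1.15, limma adjusted p = 0.00323).

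Of 27 other radial glia and NSC genes, 26 were tested, 2 were higher and 2 lower, for a median log2 fold change of -0.10. *Sox9*, a transcription factor of stem cells and astrocytes, rose from 4272 ± 444 to 8657 ± 1379 (SD, n = 3; log2 fold change 1.01, limma adjusted p = 0.00175). *Sox1*, a transcription factor of early neural progenitors, fell from 913 ± 126 to 190.5 ± 42.9 (log2 fold change -2.27, limma adjusted p = 3.66e-05). The others called were *Nes*, given above, and *Ptprz1*, a receptor phosphatase of radial glia and oligodendrocyte precursors, which had a log2 fold change of 0.58 (limma adjusted p = 0.0191) and lost the call without any 1 control library or library 2_2 labelled Cre (0.0566 to 0.102). Without library 2 labelled Cre, 8 of these genes were called in place of 4.

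Several members are also made by astrocytes and oligodendrocyte precursors, and part of the markers of these cells were called. Of 12 astrocyte markers, 10 were tested, 5 were higher (*S100b*, *Aqp4*, *Slc1a2*, *Fgfr3* and *Apoe*) and none lower (median log2 fold change 1.03). *Aldh1l1*, a folate enzyme of astrocytes, had means of 17.3 and 5.35 without overlap in the other direction (log2 fold change -1.65, limma adjusted p = 0.065), and *Sparcl1*, the most abundant of the list, had a log2 fold change of -0.17 (limma adjusted p = 0.432). The sum over the list was 10185 to 11562 in control against 14379 to 16821 in the libraries labelled Cre, and *S100b* went from 238 ± 14.7 to 2064 ± 407 (SD, n = 3; log2 fold change 3.10, limma adjusted p = 7.39e-07). The call of *Aqp4*, the water channel of astrocytes, was lost without control library 1 or 1_1 or library 2_2 labelled Cre (limma adjusted p from 0.0821 to 0.107). *Gfap*, the filament protein of mature astrocytes, had means of 1.82 and 4.73 and was too low to test. Of 12 oligodendrocyte lineage markers, 7 were tested, and *Olig2*, *Pdgfra* and *Cspg4* were higher, with sums of 12900.4 to 14824 in control against 17819 to 20127 in the libraries labelled Cre. *Pdgfra* had the largest log2 fold change of these, 0.86 (limma adjusted p = 0.0136), and lost the call without control library 2 (0.0703) or library 2_2 labelled Cre (0.0696). *Cspg4*, the proteoglycan NG2, lost it without any 1 control library or library 3 labelled Cre (limma adjusted p from 0.0621 to 0.121). In RNA pooled from many cells, more cells of a type and more RNA per cell cannot be told apart. The part of either list in the values of *Vcam1* and *Ednrb* was not tested.

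Markers of the remaining cell types were not called. None of the 6 neuron markers tested of 12 passed, and *Map2*, the most abundant, had a log2 fold change of 0.19 (limma adjusted p = 0.337). Of 9 microglia and blood markers only *Csf1r* was tested (log2 fold change 0.25, limma adjusted p = 0.483), and *Tmem119*, *Hbb-bt* and *Hba-a1* had no read. Of 8 fibroblast and meningeal markers 2 were tested, and the list summed to 853 to 1094 in control against 682 to 899.6 in the libraries labelled Cre, with *Col1a2* at 0 and *Ptgds* the most abundant (log2 fold change -0.22, limma adjusted p = 0.45). For 6 ependymal markers, of which 2 were tested, the sums were 44.0 to 67.3 and 58.2 to 158, and *Foxj1*, the regulator of motile cilia, had a log2 fold change of 0.75 (limma adjusted p = 0.238).

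Library 2_2 labelled Cre was the highest of the 6 for 7 members, against 16.7% of all tested genes. The difference of each member was therefore followed with each library left out. *Vcam1*, *Ednrb*, *Fabp7*, *Bcan*, *Msi2* and *Hopx* had positive log2 fold changes in all 6 of these fits and *Tnc* and *Cd44* negative ones. *Msi1* turned sign in 3 of them, between -0.04 and 0.13, and *Prom1* in 1.

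**Figure D4:**
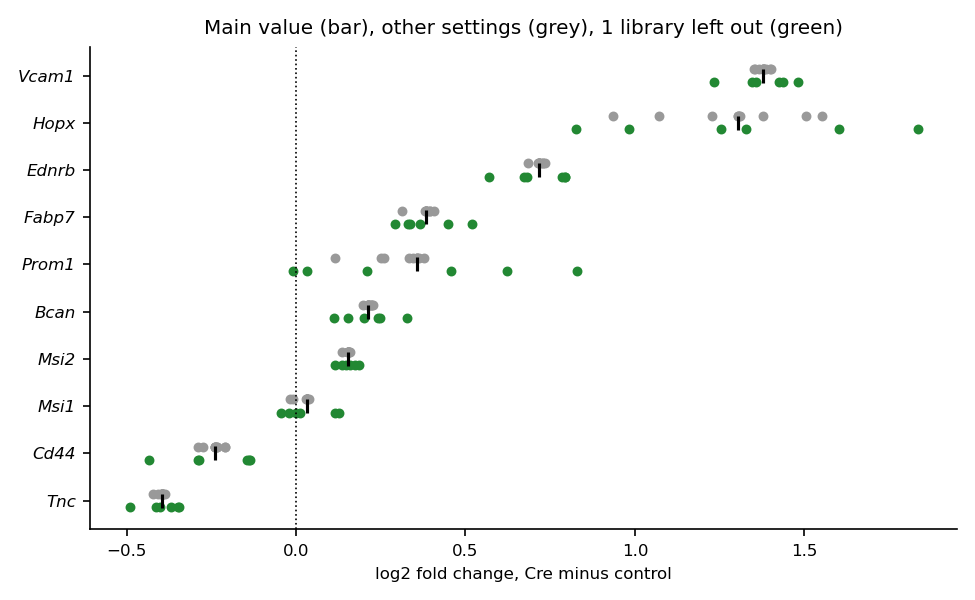
Log2 fold change (horizontal axis, libraries labelled Cre minus control) of the 10 genes under each setting. Black bars are the values given in the text, grey points are other ways of processing and testing, and green points leave out 1 of the 6 libraries each. *Vcam1* stays between 1.23 and 1.48, *Hopx* spreads from 0.83 to 1.83, and *Msi1* and *Prom1* lie on both sides of 0.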

How the data were processed

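RNA-seq values of 6 libraries were analyzed, grouped by the sample labels. Libraries were prepared with the TruSeq RNA kit v2. The labels' processing notes name STAR 2.7, mm10 and DESeq2, while the study's methods name TopHat with mm9 and mm10, and which of these made the table, the read counter, the use of strand and the annotation are not given in the sources used here.

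As deposited by the authors, each value is a normalized count, a signal made by dividing the reads of a gene by the size factor of its library. From the authors' own comparison the deposited file carries log2 fold changes, standard errors and test statistics (a score per gene) and p-values, none of which was used. It has 53379 lines, of which 873 have no gene name and 1, with a missing value, was left out. What 1 read is worth in each library was found from its low values, and 100% of values then came out as whole reads (tolerance 0.01). Totals of 7510615 to 14828100 reads bear on the precision of low genes such as *Hopx* and *Prom1*.

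The main test was limma 3.58.1 in R 4.3.3 (lmFit, eBayes with trend, two-sided) on log2(normalized count + 1) for genes with a mean of at least 10, because the deposited values are not raw counts. p-values were adjusted by the Benjamini-Hochberg method over all genes tested, with a threshold of 0.05. Fold changes are on this scale and understate those of low genes. The 17 alternatives were edgeR 4.0.16 (quasi-likelihood test) and DESeq2 1.42.0 with recovered reads as input, a pseudocount of 0.5 or of 5, a filter at a mean of 50 or none, scaling by TMM or by total reads, averaging control libraries 1 and 1_1 or libraries 2 and 2_2 labelled Cre, a threshold of 0.1, and leaving out each library in turn. Over all tested genes limma called 1478, edgeR 1483 and DESeq2 1755. The tests were tested on simulated data before use.

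The members and all gene lists were chosen with earlier results of these data known. The genes named were the 10 members with every value, *Tbl1xr1*, *Nes*, *Sox2*, *Vim*, *Pax6* and *Slc1a3*. From each list the called gene of largest change in each direction was named or, with none called, the most abundant one. The 2 tested genes closest to each called member by Euclidean distance were named too, predicted genes left out. Other called genes of a list, and list genes named for a missing read or beside a member, were chosen after their values were seen, as was running the alternatives for genes outside the set. Exon lengths and overlaps came from GENCODE M1, and coordinates and promoters from RefSeq GRCm38.p6. Python 3.11.15, scipy 1.17.1 and matplotlib 3.10.9 were used. The protein sequences of the members were not used here.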

Additional observations from a re-analysis of the deposited data

How the results depend on the processing

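No paired analysis was possible because the groups share only 1 replicate number (2). *Vcam1* passed the threshold in all 17 alternatives, of which the threshold of 0.1 is passed by any gene called at 0.05. With 1 library left out, the number of members called ran from 1 to 3, of members called higher from 1 to 3 and of members called lower from 0 to 1, and at an adjusted p under 0.1 *Tnc* made 1 member called lower. The count of other radial glia and NSC genes called, 4, ran from 3 to 8 in these fits and was 8 without library 2 labelled Cre. The log2 fold change of *Msi1* was -0.017 with control libraries 1 and 1_1 averaged, -0.010 with libraries 2 and 2_2 labelled Cre averaged, and between -0.044 and 0.13 with 1 library left out. That of *Prom1* ran from -0.0074 to 0.83 and that of *Msn* from -0.22 to 0.027. With control libraries 1 and 1_1 averaged, *Ncan*, *Ptprz1*, *Itga4*, *Itga9*, *Cdkn1a*, *Aqp4* and *Cspg4* lost their calls (limma adjusted p from 0.0683 to 0.114). Without a filter *Ptprz1* (0.0604) and *Cdkn1a* (0.0588) did, as did *Cdkn1a* with scaling to total reads (0.0523). *Tbl1xr1* was called higher by DESeq2 (adjusted p = 0.0398), and *Fabp5* lower by DESeq2 (adjusted p = 0.0263), without a filter (limma, 0.0295) and with libraries 2 and 2_2 labelled Cre averaged (limma, 0.0109). The cause of these changes was not tested. A group with 1 library left out holds 2, whose spread limma pools with that of the other group. *Hopx* and *Prom1* were not tested at a mean of at least 50. The count of all genes called ran from 558 without control library 1 to 2396 without library 2 labelled Cre, and the median log2 fold change of all genes stayed within -0.014 and 0.018 under every scaling and filter.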
